A study of Mus musculus with 2 samples.

Results

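The miR-30 family was followed in small RNA libraries from the nuclei and the cytoplasm of mouse dendritic cells. The family comprises 6 hairpin genes in GENCODE vM21, Mir30a, Mir30b, Mir30c-1, Mir30c-2, Mir30d and Mir30e. With sequences that also fit another small RNA class or a hairpin not named Mir left out, 555 annotated miRNA hairpin genes had reads here. Before any such filter 2201 are annotated. A listed sequence was taken as a member when it matched one of the 6 miR-30 hairpins on the sense strand. The match was over its full length or with up to 3 unmatched bases at its 3′ end. This gave 246 distinct sequences and 8656 reads. Bone marrow of C57BL/6 mice was cultured over 7 days with GM-CSF, IL-4 and 10% fetal bovine serum to give dendritic cells, and all of them received lipopolysaccharide (LPS), a bacterial outer membrane component that activates these sentinel cells of innate immunity. No unstimulated library was analysed here, and the sources used here give neither the LPS dose nor its duration. The cells were opened by swelling with NP40, a mild detergent. The pellet holding the nuclei gave the nuclear library, and the remaining fraction gave the cytoplasmic library.

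There was 1 library for each fraction, so every ratio compares these libraries and has no replicate check. The labels do not say how many animals or cultures each library came from. All intervals are exact 95% intervals and cover counting error only, with each read treated as independent. Reads amplified by PCR without molecular identifiers are not independent molecules, so the intervals may be too narrow even for counting error. Levels are in RPM, the deposited reads scaled to a common library total, and a level ratio is the nuclear RPM over the cytoplasmic RPM. In bulk RNA, fewer cells of a type and less RNA per cell cannot be told apart.

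A miRNA gene is transcribed as a long primary transcript, which Drosha and DGCR8 cut in the nucleus to a hairpin precursor. Exportin-5 carries the hairpin to the cytoplasm, where Dicer removes the loop and leaves a duplex of a 5p and a 3p strand. Argonaute keeps one strand as the guide, which finds target mRNAs mainly through its seed, bases 2 to 8 from the 5′ end, and the other strand is usually degraded. In the miR-30 family the 5p strands share a seed, and the family is known for roles in cell differentiation and in restraining epithelial-to-mesenchymal transition.

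The mature sequences show what the members have in common and how little separates some of them. The RefSeq table (GRCm38.p6) gave the following sequences, with the seed in capitals.
miR-30a-5p: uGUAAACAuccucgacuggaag
miR-30e-5p: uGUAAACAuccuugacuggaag
miR-30c-5p: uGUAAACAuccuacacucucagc
miR-30a-3p: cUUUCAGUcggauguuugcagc
miR-30e-3p: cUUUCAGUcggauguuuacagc
miR-30c-1-3p: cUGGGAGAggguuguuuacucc
miR-30c-2-3p: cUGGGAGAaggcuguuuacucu
The table holds no entry for Mir30b and Mir30d. miR-30a-5p and miR-30e-5p differ at 1 of 22 positions, written C13U with positions counted from the 5′ end and the miR-30a base first. miR-30a-5p and miR-30c-5p differ at 5 positions, the first of them at 13, so each of these differences lies outside the seed. The 3p strands shown here fall under 2 other seeds, 1 shared by miR-30a-3p and miR-30e-3p and 1 shared by the miR-30c-1 and miR-30c-2 3p strands. The seeds of miR-30b-3p and miR-30d-3p were not compared. Among 1679 mature names in the table, 4 carry the 5p seed, the 3 shown here and miR-384-5p.
miR-384-5p: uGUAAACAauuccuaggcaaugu
miR-384-5p, the seed relative outside the family, had 0 reads in both libraries, which allows a nuclear level of up to 1.5 RPM and a cytoplasmic level of up to 1.47 RPM.

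The hairpins lie in 3 pairs, given here as GENCODE places them on GRCm38. Mir30a (chromosome 1, 23272269 to 23272339, plus strand) has no annotated host gene, and Mir30c-2 (chromosome 1, 23291701 to 23291784, plus strand) lies 19361 bp away in an exon of the lincRNA gene Gm27028. Mir30e (chromosome 4, 120772606 to 120772697, minus strand) and Mir30c-1 (chromosome 4, 120769534 to 120769622, minus strand) lie 2983 bp apart in an intron of Nfyc, which encodes a subunit of the transcription factor NF-Y. The locus of Mir30e is also overlapped on the other strand by Mir30f. Mir30b (chromosome 15, 68337415 to 68337510, minus strand) has no annotated host, and Mir30d (chromosome 15, 68341208 to 68341289, minus strand) lies 3697 bp away in an exon of the lincRNA gene Gm20732. Fragments assigned only to Nfyc, Gm27028 or Gm20732 had 0 reads, as had Mir30f.

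The libraries held 2000019 nuclear and 2041383 cytoplasmic reads of 18 to 39 nt. miRNA hairpins took 39.4% of the nuclear reads and 74.3% of the cytoplasmic reads. Fragments of the nuclear RNAs Malat1 (6.01-fold) and Neat1 (15.1-fold) and of the snoRNA Snord14c (57.9-fold) were higher in the nuclear library. For Snord14c, which lies within its host gene, sequences that also fit other genes were kept. For Malat1 and Neat1 only sequences that fit no other gene were counted. Fragments of mitochondrial ribosomal RNA had level ratios of 0.804 (mt-Rnr1) and 0.929 (mt-Rnr2), although this RNA is made outside the nucleus. The part of non-nuclear RNA in the nuclear miR-30 reads was not tested. The haematopoietic miR-142-5p (3218 nuclear and 5565 cytoplasmic reads) and miR-223-3p (392 and 612) were present, whereas the erythroid miR-451a had 0 and 2 reads and miR-144-3p had 0 in both. miR-155-5p, taken as a marker of LPS-treated dendritic cells, had 12219 and 9002 reads. Its level ratio of 1.39 (1.35 to 1.42) went the other way from those of miR-142-5p and miR-223-3p. The liver miRNA miR-122-5p had 287 nuclear and 24 cytoplasmic reads, and miR-1a-3p, a miRNA of muscle, had 108 and 7. Both are defining miRNAs of tissues outside the culture and both were higher in the nuclear library, and their source and its part in the miR-30 values were not tested.

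Among the 5p guide strands, miR-30d-5p was by far the most abundant. Its nuclear level was 1212 RPM (2425 reads, 95% interval 1165 to 1262 RPM) and its cytoplasmic level 1959 RPM (3999 reads, 1899 to 2021 RPM). It made up 76.9% of nuclear and 72.7% of cytoplasmic miR-30 reads, and it ranked 37 in both libraries among 208 miRNA arms with at least 50 reads. miR-30e-5p came next, with 157 RPM in the nuclear library (314 reads, 140 to 175 RPM) and 343 RPM in the cytoplasmic library (701 reads, 318 to 370 RPM). miR-30a-5p followed at 68.0 RPM nuclear (136 reads, 57.1 to 80.4 RPM) and 86.7 RPM cytoplasmic (177 reads, 74.4 to 100.5 RPM). These 3 arms stood in the same order in both libraries, with no overlap of neighbouring intervals.

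The last places in the order were not resolved by the read counts. miR-30c-5p, whose mature sequence comes from both Mir30c-1 and Mir30c-2, had 26.5 RPM in the nuclear library (53 reads, 19.9 to 34.7 RPM) and 34.8 RPM in the cytoplasmic library (71 reads, 27.2 to 43.9 RPM). miR-30b-5p had 33.0 RPM nuclear (66 reads, 25.5 to 42.0 RPM) and 25.5 RPM cytoplasmic (52 reads, 19.02 to 33.4 RPM). The intervals of these arms overlapped in each library, and 1 further sequence that fits both arms had 0 nuclear and 2 cytoplasmic reads. The plot of levels shows this spread over orders of magnitude within the family.

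**Figure D1:**
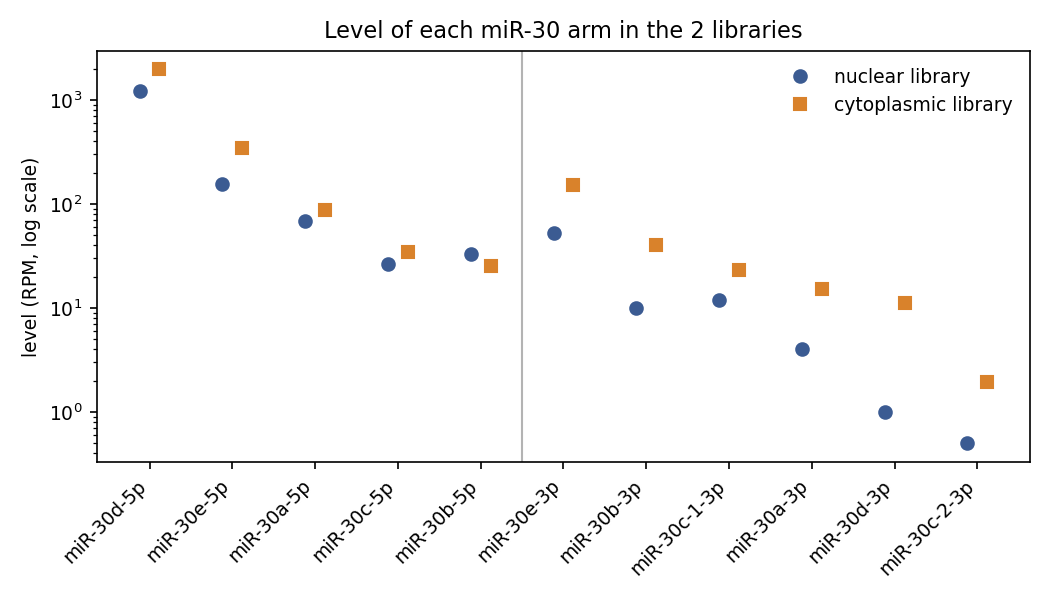
Level of each miR-30 arm in RPM (log scale) in the nuclear library (circles) and the cytoplasmic library (squares), 1 library each. miR-30d-5p stands at 1212 and 1959 RPM, far above miR-30e-5p at 157 and 343 RPM, and miR-30e-3p is the highest 3p arm at 52.5 and 153 RPM.

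The 3p strands were the less abundant strands of most hairpins. miR-30e-3p led them with 52.5 RPM in the nuclear library (105 reads, 42.9 to 63.6 RPM) and 153 RPM in the cytoplasmic library (313 reads, 137 to 171 RPM). miR-30b-3p had 10.0 RPM nuclear (20 reads) and 40.2 RPM cytoplasmic (82 reads), and miR-30c-1-3p had 12 RPM (24 reads) and 23.02 RPM (47 reads). The 3 remaining 3p arms had under 50 reads in all. miR-30a-3p had 8 nuclear and 31 cytoplasmic reads, miR-30d-3p had 2 and 23, and miR-30c-2-3p had 1 and 4. In the cytoplasmic library miR-30b-3p, at 40.2 RPM (31.9 to 49.9 RPM), was thus above its partner strand miR-30b-5p at 25.5 RPM (19.02 to 33.4 RPM), while in the nuclear library it was the lower strand.

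All the members were then compared between the fractions, which is the comparison the series was designed for. An arm with at least 50 reads was called higher or lower when its log2 ratio reached 2-fold and its interval excluded 1. Of the 8 miR-30 arms at this minimum, 3 were called lower in the nuclear library, 0 higher and 5 neither. Among all 208 miRNA arms 29.8% were called lower and 7.69% higher, which for 8 arms is near the family's own count. The median log2 ratio was -0.81 over the 8 miR-30 arms and -0.68 over all 208. Single miR-30 sequences with at least 50 reads numbered 23. They are end variants of the arms, 10 of them of miR-30d-5p, and not separate members. Their median log2 ratio was -0.93, and the nuclear level was called lower for 10 and higher for 0. Of all 3867 single sequences at this minimum, 27.0% were called lower and 40.1% higher, and these include RNA classes other than miRNA. The share over miRNA sequences alone was not computed, so the count of miR-30 sequences has no like background beside it.

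The direction of 3 of the 8 arm ratios (miR-30a-5p, miR-30c-5p and miR-30d-5p) depended on the scale chosen. Scaling each library to its miRNA reads in place of all reads moved every log2 ratio up by 0.92, and the median of the 208 arms from -0.68 to 0.24. The family as a whole had 3154 nuclear reads (1577 RPM) and 5502 cytoplasmic reads (2695 RPM), a log2 ratio of -0.77 in RPM that became 0.14 per miRNA read. As a share of miRNA reads, miR-30 stood at 0.400% in the nuclear and 0.363% in the cytoplasmic library. On either scale the family lay close to the median miRNA arm.

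Of the 5p arms, only miR-30e-5p passed the 2-fold threshold. Its levels of 157 RPM (nuclear) and 343 RPM (cytoplasmic) gave a ratio of 0.457 (0.399 to 0.523) and a log2 ratio of -1.13, or -0.21 per miRNA read. miR-30d-5p had a ratio of 0.619 (0.588 to 0.651) and a log2 ratio of -0.69, which turned to 0.22 per miRNA read. The intervals of these abundant guides did not overlap, so miR-30e-5p was shifted further to the cytoplasmic library than miR-30d-5p on any scale common to both. The cytoplasmic library held 2.19 times (1.91 to 2.51) the miR-30e-5p level of the nuclear library and 1.62 times (1.54 to 1.70) the miR-30d-5p level.

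The other 5p arms had ratios closer to 1. miR-30a-5p had a ratio of 0.784 (0.623 to 0.986) and a log2 ratio of -0.35, or 0.57 per miRNA read. miR-30c-5p had 0.762 (0.524 to 1.10) and a log2 ratio of -0.39, or 0.53 per miRNA read. miR-30b-5p was the 1 arm with more reads in the nuclear library, and its ratio of 1.30 (0.887 to 1.90) had an interval that included 1. Its log2 ratio was 0.37, and 1.29 per miRNA read. The interval of miR-30b-5p lay above those of miR-30d-5p, its neighbour on chromosome 15, and of miR-30e-5p, while it overlapped those of miR-30a-5p and miR-30c-5p.

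The 3p arms held the 2 other calls. miR-30e-3p, at 52.5 RPM nuclear and 153 RPM cytoplasmic, had a ratio of 0.342 (0.272 to 0.428) and a log2 ratio of -1.54, or -0.63 per miRNA read. miR-30b-3p, at 10.0 and 40.2 RPM, had a ratio of 0.249 (0.145 to 0.410) and a log2 ratio of -1.98, and at -1.06 it was the 1 arm still called lower per miRNA read. miR-30c-1-3p had a ratio of 0.521 (0.305 to 0.870) and a log2 ratio of -0.93, just inside the 2-fold threshold, and -0.01 per miRNA read. Among the arms under 50 reads, miR-30d-3p had a cytoplasmic level 11.3 times the nuclear one with a counting interval of 2.78 to 98.6, and miR-30a-3p had a level ratio of 0.263 (0.105 to 0.586). The interval for miR-30c-2-3p, 0.00518 to 2.58, resolved nothing.

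**Figure D2:**
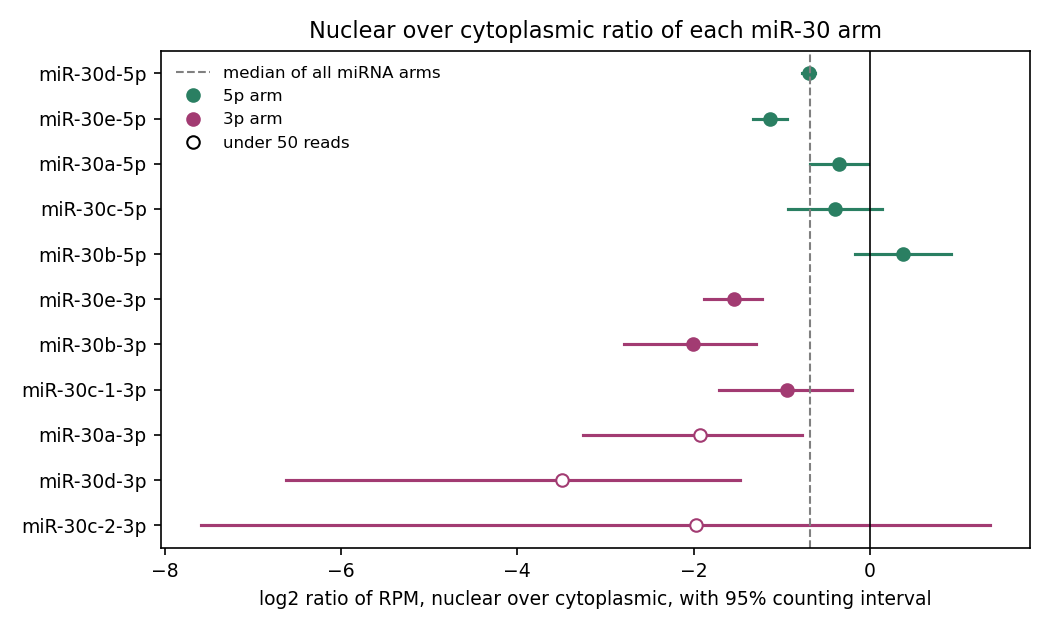
Log2 ratio of RPM, nuclear over cytoplasmic, of each miR-30 arm with its 95% counting interval (1 library a fraction, open circles under 50 reads, dashed line at the median of all miRNA arms). Among the arms with at least 50 reads, miR-30b-3p (-1.98), miR-30e-3p (-1.54) and miR-30e-5p (-1.13) lie past 2-fold. The values named include the pseudocount of 0.5 reads, while the points are drawn without it and differ most where reads are few. Scaling to miRNA reads would move every point up by 0.92, which turns miR-30a-5p, miR-30c-5p and miR-30d-5p positive.

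Summed over the family, the 3p strands were further towards the cytoplasmic library than the 5p strands. The 5p arms together had 1497 RPM nuclear and 2450 RPM cytoplasmic, a ratio of 0.611 (0.584 to 0.639). The 3p arms together had 80.0 RPM nuclear (160 reads) and 244.9 RPM cytoplasmic (500 reads), a ratio of 0.327 (0.272 to 0.391). The log2 ratios were -0.71 for the 5p sum and -1.61 for the 3p sum, and 0.21 and -0.69 per miRNA read. miR-30e-3p gave most of the 3p reads, and without it the 3p ratio was 0.300 (0.218 to 0.407). Without miR-30d-5p the 5p ratio was 0.579 (0.522 to 0.642).

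The share of 3p reads within a hairpin compares the arms free of any library scale, since both come from the same library. Over the family this share was 5.07% (4.33 to 5.90) in the nuclear and 9.09% (8.34 to 9.88) in the cytoplasmic library. The odds of a read being 3p were 0.535 times (0.442 to 0.644) as high in the nuclear library. The odds ratio was 0.584 without Mir30d and 0.472 without Mir30e, so neither of the hairpins with most reads made the difference alone.

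Mir30b showed the widest gap in the share itself. Its 3p share was 23.3% (14.8 to 33.6) in the nuclear and 61.2% (52.4 to 69.5) in the cytoplasmic library, an odds ratio of 0.194 (0.0990 to 0.367). In the nuclear library most Mir30b reads were thus 5p, and in the cytoplasmic library most were 3p. Mir30e, which had the most 3p reads, had a 3p share of 25.1% (21.0 to 29.5) and 30.9% (28.0 to 33.8), an odds ratio of 0.749 (0.572 to 0.976) close to 1. Mir30a had 5.56% (2.43 to 10.7) and 14.9% (10.4 to 20.5), an odds ratio of 0.337 (0.130 to 0.779), with 8 nuclear 3p reads behind it. Mir30d had 0.0824% (0.00998 to 0.297) and 0.572% (0.363 to 0.857), an odds ratio of 0.143 (0.0164 to 0.581), with 2 nuclear 3p reads. Mir30c-1 and Mir30c-2, which share their 5p strand and were summed, had 32.1% (21.9 to 43.6) and 41.8% (32.9 to 51.1), and the interval of their odds ratio of 0.658 (0.344 to 1.24) included 1.

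Other hairpins showed no common direction of this kind. Among 33 hairpins outside the family with at least 50 reads on each arm, the less abundant arm had the lower log2 ratio in 17 (51.5%). The difference of the log2 ratios, less abundant arm minus more abundant arm, had a median of -0.02 over these 33 and ranged from -1.72 to 3.82. The summed family stood at -0.90, and 4 of the 33 lay below it. Of the 5 miR-30 entries, each had a 3p arm with the lower log2 ratio, by -2.51 for Mir30d, -2.35 for Mir30b, -1.51 for Mir30a, -0.60 for the Mir30c pair and -0.41 for Mir30e. The 3p arms of Mir30a and Mir30d had too few reads to enter under the minimum used for the other 33.

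**Figure D3:**
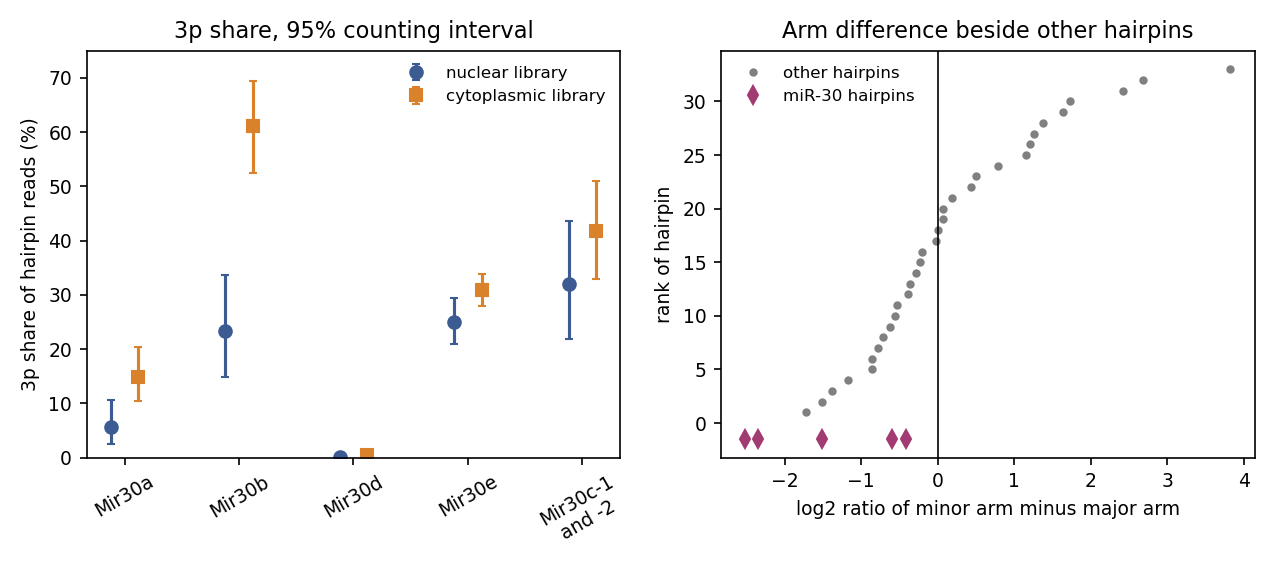
Left, share of 3p reads (%) in each miR-30 hairpin with its 95% interval in the nuclear and cytoplasmic libraries, where Mir30b goes from 23.3% to 61.2%. Right, difference of log2 ratios, less abundant minus more abundant arm, for 33 other hairpins in rank order (grey) and the 5 miR-30 entries (diamonds, 3p minus 5p), which run from -2.51 to -0.41.

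Arms are made of many end variants, and the 5 commonest of miR-30e-5p, the 3 commonest of miR-30e-3p and the commonest of miR-30a-5p are printed here as deposited, to show where their ends lie. Bases that do not match the hairpin are in capitals.
miR-30e-5p, 24 nt: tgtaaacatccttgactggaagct
miR-30e-5p, 23 nt: tgtaaacatccttgactggaagc
miR-30e-5p, 22 nt: tgtaaacatccttgactggaag
miR-30e-5p, 24 nt plus an unmatched T: tgtaaacatccttgactggaagctT
miR-30e-5p, 22 nt plus an unmatched A: tgtaaacatccttgactggaagA
miR-30e-3p, 22 nt: ctttcagtcggatgtttacagc
miR-30e-3p, 21 nt plus an unmatched T: ctttcagtcggatgtttacagT
miR-30e-3p, 21 nt: ctttcagtcggatgtttacag
miR-30a-5p, 23 nt: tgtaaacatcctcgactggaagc
The commonest miR-30e-5p sequence ends 2 nt beyond the RefSeq mature form and had 116 nuclear and 272 cytoplasmic reads. The form that is 1 nt shorter had 84 and 163 reads, and the 22 nt RefSeq form had 37 and 84. The 24 nt form with an unmatched T had 17 and 53 reads, a log2 ratio of -1.58, while the 22 nt form with an unmatched A had 14 and 8. For miR-30e-3p the RefSeq form was the commonest, with 36 and 98 reads, followed by the 21 nt form plus an unmatched T at 20 and 68 reads and the fully matched 21 nt form at 15 and 57. The commonest miR-30a-5p sequence, 1 nt longer than RefSeq's, had 39 and 70 reads.

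The 5p strands were long in both fractions. Fully matched reads whose 3′ end lay 24 nt from the commonest 5′ end made up 42.1% of nuclear and 42.5% of cytoplasmic miR-30d-5p reads. Those ending at 23 nt made up 23.1% and 18.1%. For miR-30e-5p the end at 24 nt held 37.6% and 39.5%, and for miR-30c-5p it held 52.8% and 53.5%. miR-30a-5p had its commonest end at 23 nt, at 28.7% nuclear and 39.5% cytoplasmic. miR-30b-5p stood apart with its commonest end at 22 nt, at 68.2% and 73.1%. Mean length over the 5p arms was 23.3 nt nuclear and 23.4 nt cytoplasmic, against a median of 22.0 nt over other arms, and the 3p arms had means of 21.3 and 21.5 nt.

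**Figure D4:**
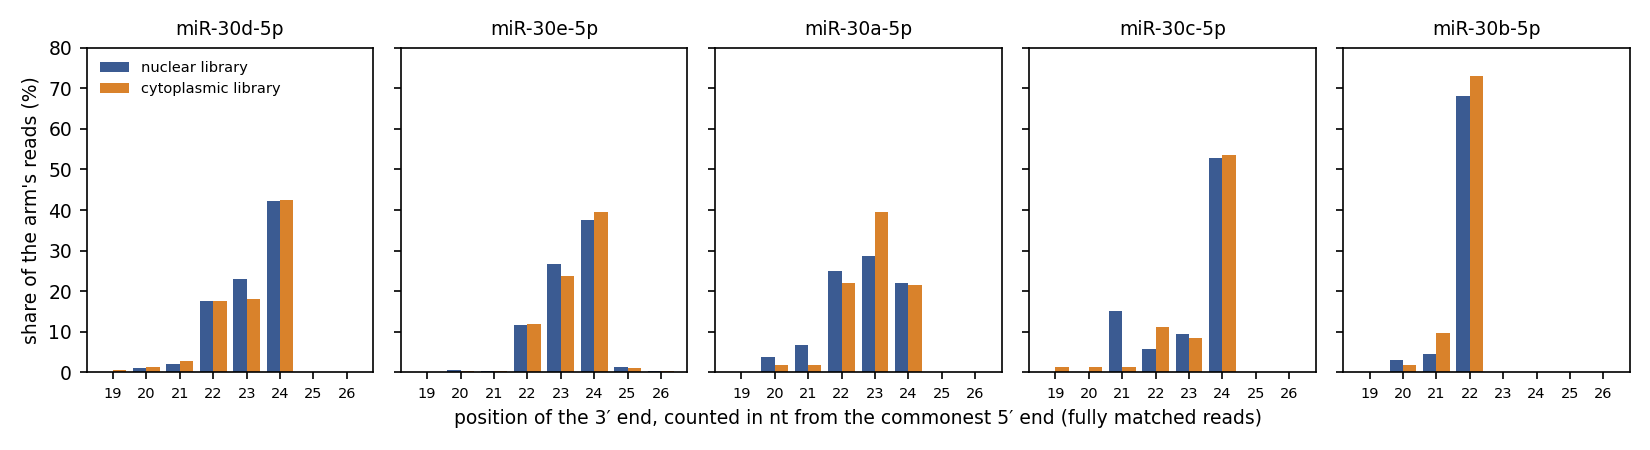
Share of each 5p arm's reads (%) by position of the 3′ end, in nt from the commonest 5′ end, for fully matched reads in the nuclear and cytoplasmic libraries. miR-30d-5p, miR-30e-5p and miR-30c-5p peak at 24 nt, miR-30a-5p at 23 nt and miR-30b-5p at 22 nt in both libraries.

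Terminal nucleotidyl transferases can add bases to finished small RNAs, which then do not match the hairpin. Summed over the 5p strands, such unmatched 3′ bases were on 14.6% (13.4 to 15.9) of nuclear and 17.8% (16.7 to 18.9) of cytoplasmic 5p reads. miR-30d-5p, which gave most of these reads, had 13.5% (12.1 to 14.9) against 17.1% (15.9 to 18.3). A single unmatched A was on 8.58% of its nuclear and 10.1% of its cytoplasmic reads, and 2 or 3 unmatched bases were on 2.89% and 4.90%. A read error in the last bases would be counted in the same way, and its part was not tested. The intervals of the other 5p arms overlapped between the libraries, and the arms went in both directions. miR-30e-5p had 21.3% and 22.5%, miR-30a-5p had 14.0% and 13.6%, and miR-30c-5p had 17.0% and 22.5%. miR-30b-5p had 24.2% (14.5 to 36.4) in the nuclear and 15.4% (6.88 to 28.1) in the cytoplasmic library. The 3p arms had 29.4% nuclear and 29.0% cytoplasmic, and over other arms the median was 16.7% and 16.3%. miR-30e-3p, the deepest of the 3p arms, had 32.4% (23.6 to 42.2) and 38.7% (33.2 to 44.3), of which a single T made up 21.9% and 23.6% of reads.

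The 5′ end, which sets the seed, was almost fixed in the 5p arms and looser in the 3p arms. A nearly fixed 5′ end was also usual over other arms. There the median share of reads at the commonest base was 98.8% nuclear and 98.5% cytoplasmic, with lower quartiles of 93.4% and 94.5%. Only 5 of 2994 nuclear (0.167%) and 11 of 5000 cytoplasmic (0.220%) 5p reads began anywhere but at the commonest base. Among 3p reads 28 of 160 nuclear (17.5%, 11.95 to 24.3) and 45 of 500 cytoplasmic (9.0%, 6.64 to 11.9) did so. Most of these, 25 nuclear and 40 cytoplasmic, began 1 base later, which moves the seed by 1 base. In miR-30e-3p the share was 11.4% (6.05 to 19.1) and 6.07% (3.69 to 9.32), with overlapping intervals. In miR-30a-3p it was 37.5% and 41.9%, and in miR-30b-3p 35.0% and 12.2%, on few reads. The intervals of the summed 3p shares just missed each other, and the arms in that sum had unlike shares. Reads from the loop or the flanks were almost absent, with 1 cytoplasmic read in all that began over 5 nt from an arm's start. Few such reads could be seen, because the annotated hairpins hold little sequence outside the arms and no sequence was over 39 nt. The Mir30a hairpin, for example, is 71 nt long and its 5p arm starts at base 6.

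**Figure D5:**
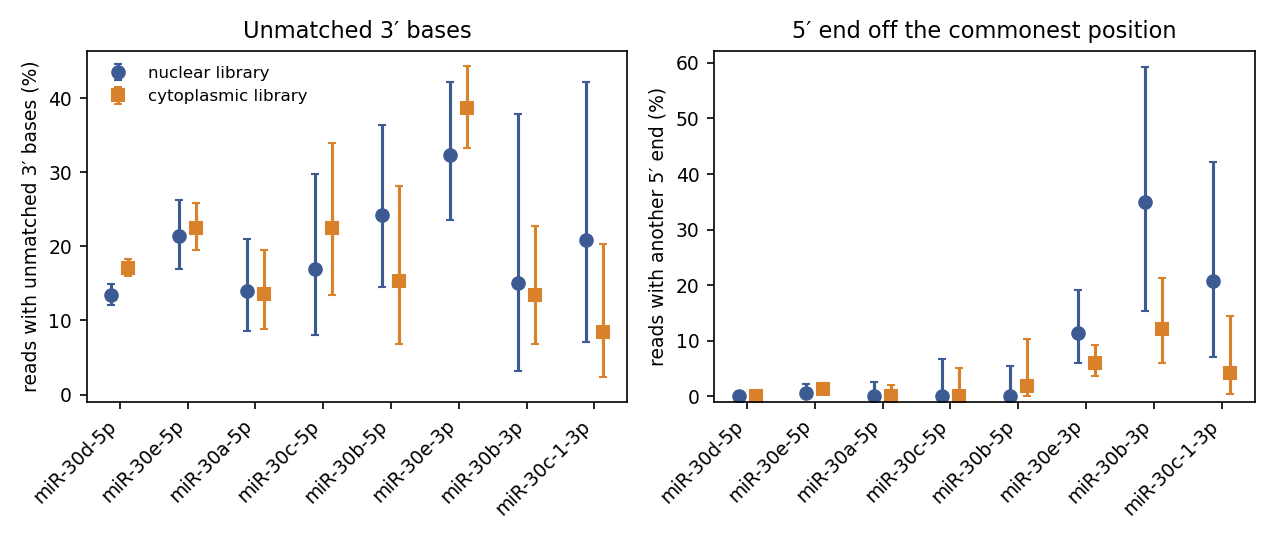
Left, share of reads (%) with unmatched 3′ bases, and right, share of reads (%) with another 5′ end than the commonest, in the 8 miR-30 arms with at least 50 reads, nuclear (circles) and cytoplasmic (squares), with 95% intervals. The 5p arms lie near 0% for other 5′ ends, and miR-30b-3p reaches 35.0% in the nuclear library.

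Some members are so alike that a sequencing error in an abundant one could be counted as another. Within the first 20 bases, the commonest sequences of miR-30a-5p and miR-30d-5p differ at 1 position (position 12), those of miR-30a-5p and miR-30e-5p at 1 (position 13), and those of miR-30d-5p and miR-30e-5p at 2. Sequences 1 substitution away from miR-30d-5p, and fitting no member, had 386 reads, which is 7.67% of the miR-30d-5p reads in the nuclear and 5.0% in the cytoplasmic library. By position these peaked at 10 (79 reads) and 11 (84 reads), with at most 33 reads at any of the other positions that could be counted. Changes at position 12 could not be counted, because such sequences fit miR-30a-5p or are equally close to it, and those counted at position 13 had 7 reads. A like number of reads at 12 would stand as miR-30a-5p, which had 313 reads in all. With as many reads taken off in each library as the commonest single substitution had there, miR-30a-5p would have 102 nuclear and 130 cytoplasmic reads and a ratio of 0.801 (0.612 to 1.05), little changed from 0.784.

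The arms whose log2 ratio was nearest to that of the summed miR-30 5p arms (-0.71), among 73 other arms with at least 1000 reads, belonged to miR-503 and let-7f. miR-503-5p had 575 nuclear and 961 cytoplasmic reads, a log2 ratio of -0.71. The 5p entry of let-7f-1 alone had 583 and 974 reads, also -0.71, and the joint entry of let-7f-1 and let-7f-2 had 118106 and 196332 reads, at -0.70. Likeness here is the smallest gap in log2 ratio across 2 libraries and describes no more than that.

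Transcripts of the miRNA pathway itself were barely sampled by these small RNA libraries. Of 17 genes of miRNA processing, export, loading and silencing, 14 had reads, with 172 in the nuclear and 83 in the cytoplasmic library, and 0 reached 50 reads. Ago2, the slicing Argonaute, had the most with 29 nuclear and 14 cytoplasmic reads. Tnrc6a, which links Argonaute to mRNA decay, had 25 and 10, and Dicer1 had 23 and 4. Drosha had 0 in both, as had Lin28a and Lin28b, whose products block let-7 processing. All these counts are of sequences that fit no other gene. Shared sequences were left out for several of the genes, among them 2 distinct sequences for Drosha and 2 for Lin28b. Such fragments do not measure the mRNA or protein levels of these genes.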

How the data were processed

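Small RNAs of 1 nuclear and 1 cytoplasmic library were deposited as 1 table of distinct sequences with values in RPM, which the authors scaled to each library's reads. CASAVA and the build mm10 are named per the submitters' processing notes, while trimming, alignment and filters are not stated there. The last letter of each deposited column's name (N or C) was read as nuclear or cytoplasmic. All values (100%) were whole multiples of 1 read within 0.1 read (0.500 and 0.490 RPM per read), which gave 2000019 and 2041383 reads. No count test was possible with 1 library a group, so no p-value is given.

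The members, gene lists and rules were chosen with earlier results of these data known. Sequences were matched on the sense strand to GENCODE vM21 hairpins (at least 18 matched bases, up to 3 unmatched at the 3′ end). Read backwards, 273 nuclear and 31 cytoplasmic reads (0.0136% and 0.00152%) matched. Left out of the miRNA arms were 2702 sequences that also fit another small RNA class or a hairpin not named Mir, 0 of them miR-30. The named items were all miR-30 arms, and the 3 arms with at least 1000 reads nearest to the summed miR-30 5p arms in log2 ratio. For log2 ratios 0.5 reads were added as a pseudocount, so changes of arms with few reads are understated. Exact intervals were conditional on the reads of both libraries, and the floor for 0 was 3 reads. Steps were tested on simulated data. Python 3.11.15, scipy 1.17.1, R 4.3.3 and edgeR 4.0.16 (TMM factors only) were used. Alternatives were other scalings, read minima, exact matches only and the most abundant sequence of each arm.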

Additional observations from a re-analysis of the deposited data

How the results depend on the processing

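Scaling to miRNA reads gave log2 ratios of 0.21 for the 5p sum, -0.69 for the 3p sum and 0.14 for all miR-30 reads, with 1 arm called lower (miR-30b-3p) and 1 higher (miR-30b-5p). This scale moves all ratios alike by construction. TMM factors (shift 0.01) and the median of ratios (-0.03) moved none of these values past the counting intervals. With a minimum of 10 reads 5 of 10 arms were called lower, and with none 5 of 11, since more arms entered. With exact matches only 4 of 8 were, miR-30c-1-3p (-1.13) being added. The share of all miRNA arms called lower was not computed at these settings, so these counts have no background beside them. Over all 208 miRNA arms, the miRNA scale called 37 higher and 9 lower, and the median of ratios 13 and 66. Of the single arms' ratios, 8 of 24 moved under the scalings, all under miRNA reads, and 1 of 53 under the other alternatives, miR-30a-5p at -0.81 from its most abundant sequence alone. A change of the read minimum, or leaving out sequences shared between arms, cannot alter a single arm's ratio. Many of the 53 were thus fixed in advance, and their count is no measure of robustness. No paired analysis was possible because each fraction had 1 library, and for the same reason no replicate could be left out. Leaving out Mir30b, Mir30d or Mir30e and taking reads off miR-30a-5p were chosen after seeing the data. The difference between the summed 3p and 5p log2 ratios, -0.90, was -0.82, -0.77 and -1.07 without these hairpins in turn. Arms under 50 reads are limited by depth.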
